A study of Mus musculus with 24 samples.

Results

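The genes described are 27 genes of cholesterol metabolism: 17 enzymes that build cholesterol, 4 genes of sterol sensing, and 6 genes of uptake, intracellular transport, storage and efflux. Members were found by gene name on a single-colour Agilent mouse array and kept where every one of the 4 arrays in at least 1 group called a probe well above background. All 27 genes passed, with 37 of 37 probes, out of 23317 gene names that passed by the same rule among 34836 on the array. The detection rule used no measured difference, but the 27 genes were listed with earlier results of these data known. A total of 10 members had 2 probes, and the brighter probe stands for its gene.

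RNA came from male NZO/HiBomDife mice (NZO), an obese and diabetes-prone inbred strain, and from male C57BL/6 mice (B6), a lean strain, with the same diet in both. All mice received a diet with 45% fat and were sampled at 6 weeks of age. Samples were taken from skeletal muscle and from 2 fat depots, brown fat (BAT) and the gonadal white depot (gWAT), so that NZO gWAT, B6 gWAT, NZO BAT, B6 BAT, NZO muscle and B6 muscle had 4 arrays each, 24 in all. The labels do not say that samples came from separate animals, so the p-values measure the spread between samples, which may in part be technical.

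A level is the log2 processed signal minus the log2 of the array's 75th percentile, so that 0 marks a signal equal to that percentile and 1 unit is a 2-fold step. Levels are compared for one probe between samples, never between probes. The 75th percentile was 238 to 360 in gWAT, 134 to 178.0 in BAT and 143 to 205 on the muscle arrays used. The B6 muscle array numbered 011 was left out, because it carried adipose transcripts: its summed level of mature adipocyte markers was 1285, against 209 to 263 on the other 3 B6 muscle arrays. Tissue labels were checked against marker sums, which are sums of signals relative to the 75th percentile. Muscle fibre markers summed to 8255 to 9336 on NZO muscle arrays and 9568 to 10774 on B6 muscle arrays. Brown adipocyte markers summed to 3153 to 3359 on NZO BAT arrays and 3121 to 3983 on B6 BAT arrays. Hepatocyte markers exceeded a sum of 100 on 5 arrays, namely NZO gWAT 003 and 012, B6 gWAT 010, and NZO muscle 003 and 007. A difference in bulk tissue does not separate fewer cells of a type from less RNA per cell.

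Cholesterol is built from acetyl-CoA through mevalonate, squalene and lanosterol. The transcription factor encoded by Srebf2 drives most genes of this route, and is carried to the Golgi for activation by the protein of Scap when membrane sterol is low, whereas the proteins of Insig1 and Insig2 hold it in the endoplasmic reticulum when sterol is high. Imported cholesterol leaves lysosomes through the products of Npc2 and Npc1, is esterified for storage by the enzyme of Soat1, and leaves the cell through the transporter of Abca1. Adipocytes hold much of the body's free cholesterol in their lipid droplets and membranes, and make little of it themselves compared with liver.

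Promoter sequence was read for the 250 bases before the annotated start from RefSeq on mouse build GRCm38.p6. An entry was found for 22 of 27 members; Fdps, Fdft1, Sqle, Stard4 and Npc1 had none. The sterol regulatory element, searched as TCACNCCAC on both strands, was found in Hmgcs1 alone among the 22, against 1.22% of the 27025 genes with a promoter entry. The shorter form CACNCCAC, which overlaps it, was found in Hmgcs1, Insig1 and Acat2, against 6.05% of genes. The CCAAT box was found in 19 of 22 members, the exceptions being Abca1, Acat2 and Scap, against 37.5% of genes. GGGCGG, the GC box, was found in 20 of 22 members, against 35.4% of genes. The direct repeat bound by the liver X receptor, searched on both strands, was found in 0 of 22 members, against 0.0851% of genes. These shares are over all genes with an entry, detected on the arrays or not, whereas every member was detected. Whether the members differ from other detected genes was not tested. A match describes letters in these windows and is neither a site nor a cause.

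The windows printed are those of Hmgcs1, which held the longer element, of Insig1 and Tm7sf2, which were lower in NZO BAT, and of Lss and Acat2, which had the largest tissue differences. Each runs 5′ to 3′ and ends at the base before the start. Capitals mark CACNCCAC or TCACNCCAC and the CCAAT box on either strand.
Hmgcs1 (chr13:119690101-119690350, plus strand): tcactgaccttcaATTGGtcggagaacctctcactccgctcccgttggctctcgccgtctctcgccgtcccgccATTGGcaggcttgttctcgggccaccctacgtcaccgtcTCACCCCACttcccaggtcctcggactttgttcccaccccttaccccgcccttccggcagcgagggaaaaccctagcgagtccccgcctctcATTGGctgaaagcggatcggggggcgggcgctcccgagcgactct
Insig1 (chr5:28071162-28071411, plus strand): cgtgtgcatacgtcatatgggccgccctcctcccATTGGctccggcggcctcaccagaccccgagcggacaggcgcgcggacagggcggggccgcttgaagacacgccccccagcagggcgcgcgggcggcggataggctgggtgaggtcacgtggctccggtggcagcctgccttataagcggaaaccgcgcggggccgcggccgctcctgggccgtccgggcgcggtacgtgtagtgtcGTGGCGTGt
Tm7sf2 (chr19:6067851-6068100, minus strand): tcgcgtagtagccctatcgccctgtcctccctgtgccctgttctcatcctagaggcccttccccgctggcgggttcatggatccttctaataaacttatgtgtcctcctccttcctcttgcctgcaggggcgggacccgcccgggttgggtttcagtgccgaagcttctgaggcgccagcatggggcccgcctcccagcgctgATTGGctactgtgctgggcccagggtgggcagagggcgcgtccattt
Lss (chr10:76531355-76531604, plus strand): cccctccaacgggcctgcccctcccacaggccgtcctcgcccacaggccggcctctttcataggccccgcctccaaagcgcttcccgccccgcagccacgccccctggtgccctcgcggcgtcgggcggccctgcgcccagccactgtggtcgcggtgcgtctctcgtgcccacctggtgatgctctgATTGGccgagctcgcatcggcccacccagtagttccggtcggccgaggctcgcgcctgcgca
Acat2 (chr17:12960726-12960975, minus strand): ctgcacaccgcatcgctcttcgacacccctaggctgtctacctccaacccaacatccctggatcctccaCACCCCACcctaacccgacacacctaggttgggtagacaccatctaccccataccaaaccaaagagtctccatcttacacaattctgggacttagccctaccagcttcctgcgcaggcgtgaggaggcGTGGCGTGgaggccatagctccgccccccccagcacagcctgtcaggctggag

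The strain question was asked in each tissue separately, as NZO minus B6, with limma, and a gene was called at a Benjamini-Hochberg adjusted p under 0.05. Probe positions are those of build mm9, per the file headers, without exon or intron, since no annotation of that build was used here. Most cholesterol genes did not pass the test. Of the 6 called in gWAT, 4 were transport and storage genes, and the 5 called in BAT were 2 enzymes, 1 sensing gene and 2 transport genes. In gWAT 5 members were higher and 1 lower in NZO of 27 tested, where 15.9% of all genes tested were higher and 15.7% lower. In BAT 2 were higher and 3 lower of 26 tested, against 7.58% and 8.10% of all genes. In muscle 1 was higher and 2 lower of 27 tested, against 4.69% and 6.01% of all genes. These counts were near the shares over all genes, apart from the lower calls in gWAT, which were fewer. No test compared the counts, or the roles of the called members, with those of all genes. The members had a median difference of -0.01 in gWAT, where that of all genes was -0.00. It was -0.21 in BAT, against -0.00, and -0.08 in muscle, against -0.03. Stard4 was the only member called in all 3 tissues.

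**Figure D1:**
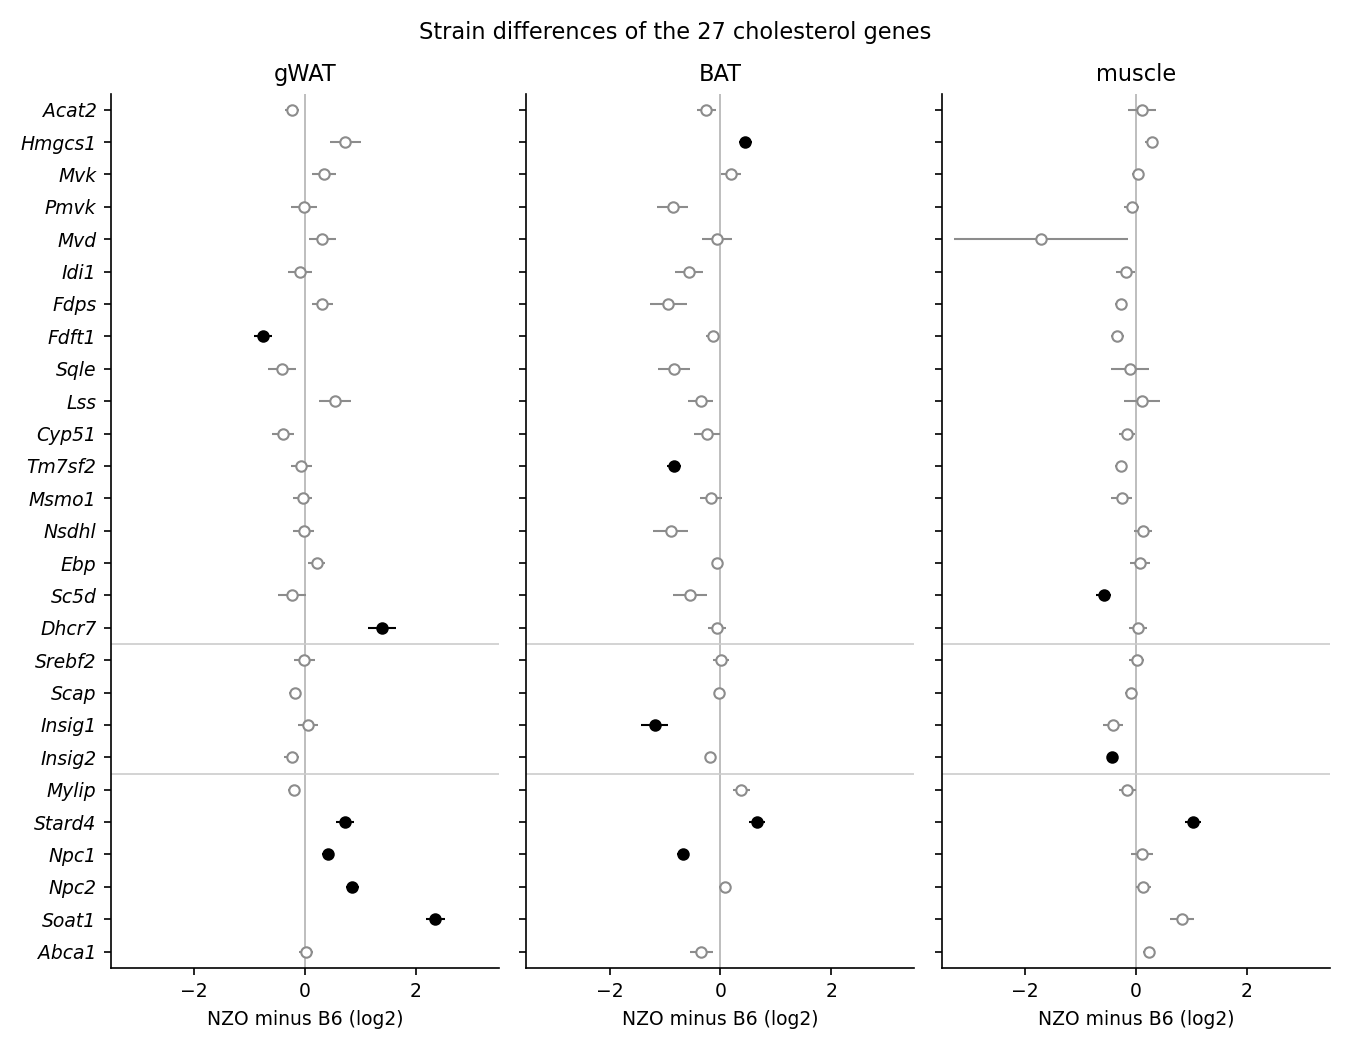
Strain differences of the 27 genes in gWAT, BAT and muscle. Each point is the fitted difference NZO minus B6 in log2 units with its standard error, filled black where the adjusted p was under 0.05 and open otherwise; horizontal lines separate enzymes, sensing genes, and transport, storage and efflux genes. Filled points number 6 in gWAT, 5 in BAT and 3 in muscle.

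Soat1 (probe at chr1:158358766-158358825), which encodes the enzyme that esterifies cholesterol for storage in most tissues, had the largest strain difference of the group. Its levels in gWAT were -1.11, -1.45, -1.62 and -1.20 on NZO arrays 003, 007, 009 and 012, against -3.95, -3.80, -3.77 and -3.28 on B6 arrays 009, 010, 011 and 015. Every NZO gWAT array lay above every B6 gWAT array. The difference was 2.36 (SE 0.18, adjusted p 5.03e-05), a 5.12-fold higher level, and was called under every alternative, at 1.13 to 2.62, lowest with normexp background correction. In BAT the Soat1 probe was not well above background on any NZO array, with levels of -4.65 to -4.01, and was so on 1 of 4 B6 arrays, with levels of -5.48 to -4.02, so it was not tested. In muscle its levels were -3.52 to -2.86 on the 4 NZO arrays and -4.31 to -3.78 on the 3 B6 arrays, of which only B6 015 was well above background. The muscle difference of 0.83 (SE 0.21) did not pass at an adjusted p of 0.0507, and was 0.015 with normexp.

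Npc2 (chr12:86097947-86098006), a soluble lysosomal protein that hands cholesterol to the membrane protein of Npc1, was also higher in NZO gWAT. Its levels were 6.26, 6.59, 6.66 and 6.33 on NZO arrays and 5.72, 5.61, 5.61 and 5.47 on B6 arrays. The groups did not overlap, and the difference was 0.86 (SE 0.12, adjusted p 0.00131). In BAT Npc2 had levels of 5.54, 5.61, 5.63 and 5.31 on NZO arrays and 5.52, 5.49, 5.42 and 5.33 on B6 arrays, and its difference there was 0.08. In muscle the difference was 0.14, and neither passed the test.

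Npc1 differed in opposite directions in the 2 fat depots. In gWAT its levels were 0.04, -0.19, 0.02 and -0.02 on NZO arrays and -0.45, -0.46, -0.62 and -0.27 on B6 arrays, a difference of 0.41 (SE 0.11, adjusted p 0.0245). In BAT they were 0.15, -0.25, 0.05 and 0.14 on NZO arrays and 0.59, 0.81, 0.68 and 0.70 on B6 arrays, a difference of -0.67 (SE 0.11, adjusted p 0.00527). The strains did not overlap in either depot. In muscle Npc1 levels were 1.29, 0.61, 0.52 and 0.86 on NZO arrays and 0.71, 0.56 and 0.86 on B6 arrays, and the strains overlapped (0.11, adjusted p 0.768). The gWAT call was lost in 5 of 8 fits that each left out 1 array, namely B6 009, 010 and 011 and NZO 003 and 009, where adjusted p ran from 0.0503 to 0.0712. The BAT call was lost when arrays were scaled to their median (-0.62, adjusted p 0.0524) and with array number as a block (-0.54, adjusted p 0.239).

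Stard4 (chr18:33361181-33361240), a cytosolic carrier that moves cholesterol between membranes, was higher in NZO in each tissue. In gWAT it had levels of 1.18, 1.00, 0.89 and 0.78 on NZO arrays and 0.62, 0.11, -0.04 and 0.28 on B6 arrays (0.72, SE 0.16, adjusted p 0.0115). In BAT it had 0.19, 0.26, 0.37 and 0.72 on NZO arrays 003, 007, 009 and 011 and -0.05, -0.55, -0.23 and -0.28 on B6 arrays (0.66, SE 0.15, adjusted p 0.0219). In muscle it had 0.26, 0.35, 0.50 and 0.33 on NZO arrays and -0.44, -0.60 and -0.96 on B6 arrays 009, 010 and 015 (1.03, SE 0.14, adjusted p 0.00594), a 2.04-fold higher level. The lowest NZO array lay above the highest B6 array in all 3 tissues. The BAT call was lost without B6 010, B6 015 or NZO 009, with adjusted p of 0.0522, 0.0558 and 0.0605. The muscle call was lost when B6 muscle 011 was kept (0.79, adjusted p 0.130) and when the 2 NZO arrays rich in hepatocyte transcripts were left out (1.08, adjusted p 0.0561). The dimmer Stard4 probe gave 0.85 in gWAT (adjusted p 0.0116), where it was well above background on every array of both strains. It gave 0.55 in BAT (adjusted p 0.0688) and 0.92 in muscle (adjusted p 0.0640). In those 2 tissues only the NZO group passed the detection rule, so it entered the tests through the higher group.

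Abca1 and Mylip completed this group and did not pass in any tissue. Abca1, the transporter that loads cholesterol onto lipid-poor apolipoprotein A-I, had gWAT levels of 2.84, 2.92, 3.08 and 2.68 on NZO arrays and 2.80, 2.77, 2.77 and 3.12 on B6 arrays. In BAT it had 1.65, 2.04, 1.96 and 1.71 on NZO arrays and 1.68, 1.99, 2.52 and 2.53 on B6 arrays. In muscle it had 0.36, 0.34, 0.36 and 0.09 on NZO arrays and 0.06, 0.10 and 0.00 on B6 arrays. The strains overlapped in each tissue, and the differences were 0.01, -0.34 and 0.23. Mylip, a ubiquitin ligase that sends lipoprotein receptors for degradation, had strain differences of 0.38 in BAT, -0.20 in gWAT and -0.15 in muscle.

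Markers of macrophages, cells that also store cholesterol esters, separated the strains in gWAT. Of 12 macrophage markers tested in gWAT, 11 were higher and 0 lower in NZO, with a median difference of 2.07. Their summed level was 208 to 255 on NZO gWAT arrays and 69.6 to 87.9 on B6 gWAT arrays. All 12 were well above background on every gWAT array of both strains. Brown adipocyte markers also separated the strains in gWAT, with sums of 63.8 to 119 on NZO arrays and 12.2 to 23.01 on B6 arrays, and 3 of 6 were called higher. Lymphocyte markers summed to 6.32 to 24.7 on NZO arrays and 3.98 to 5.06 on B6 arrays, and 2 of 7 tested were called higher. The part of these cell types in the gWAT results was not tested. Without the 3 gWAT arrays rich in hepatocyte transcripts, Soat1, Npc2 and Dhcr7 stayed called. Npc1 (0.36, adjusted p 0.159), Stard4 (0.66, adjusted p 0.0858) and Fdft1 (-0.68, adjusted p 0.0902) did not. With all gWAT arrays these differences were 0.41, 0.72 and -0.76. The smaller fit also had fewer arrays, so the lost calls do not separate hepatocyte transcripts from lower precision.

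Among the 17 enzymes, 1 was higher and 1 lower in NZO gWAT. Dhcr7 (chr7:151033874-151033933), which reduces the last double bond to give cholesterol, had levels of 0.15, 0.58, 0.55 and 0.14 on NZO arrays and -0.36, -0.93, -1.46 and -1.40 on B6 arrays. The groups did not overlap, and the difference was 1.39 (SE 0.25, adjusted p 0.00447), a 2.62-fold higher level. Dhcr7 had BAT levels of -0.43, -0.01, -0.25 and 0.19 on NZO arrays and 0.17, 0.01, -0.14 and -0.31 on B6 arrays. In muscle it had -1.30, -1.18, -1.43 and -1.78 on NZO arrays and -1.31, -1.48 and -1.59 on B6 arrays. The strains overlapped in both, with differences of -0.06 and 0.04. Fdft1, squalene synthase, had 1.62, 1.84, 1.69 and 1.48 on NZO gWAT arrays and 2.83, 2.34, 2.14 and 2.38 on B6 gWAT arrays (-0.76, SE 0.16, adjusted p 0.00888). The 2 Fdft1 probes disagreed in sign there: the dimmer one at chr14:63764562-63764621 differed by 0.59 (adjusted p 0.127), and the mean over both by -0.09 (adjusted p 0.617). The dimmer probe was well above background on every array in NZO gWAT and B6 muscle only. It thus entered the gWAT test through NZO, where it was higher, while B6 gWAT did not pass that rule.

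In muscle Fdft1 had 2.44, 2.37, 2.52 and 2.58 on NZO arrays and 2.79, 3.0 and 2.65 on B6 arrays, a difference of -0.34 that did not pass (adjusted p 0.119).

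The other 15 enzymes did not pass in gWAT, and their differences ran from -0.42 for Sqle, squalene epoxidase, to 0.73 for Hmgcs1, the cytosolic enzyme that makes HMG-CoA. Hmgcs1 levels in gWAT were 6.65, 7.38, 7.27 and 6.57 on NZO arrays and 6.75, 6.41, 6.12 and 5.68 on B6 arrays. The strains overlapped through the B6 array numbered 009, and the adjusted p was 0.0760. A second, much dimmer Hmgcs1 probe was higher in NZO gWAT by 1.62 (SE 0.33, adjusted p 0.00702). NZO gWAT was the only group in which this dimmer probe passed the detection rule. The probe thus entered the strain test through the higher group, while B6 gWAT did not pass that rule. Nsdhl and Tm7sf2 each had 2 probes of opposite sign in gWAT, at -0.02 and 0.26 for Nsdhl and -0.06 and 0.14 for Tm7sf2, none past the test.

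In BAT the enzymes lay lower in NZO in 15 of 17 cases, with a median difference of -0.25, against -0.00 over all genes. Only 1 passed the test in this direction and 1 in the other. The mean of the 17 levels overlapped between strains, at 2.0 to 2.72 on NZO BAT arrays and 2.55 to 3.03 on B6 BAT arrays. Tm7sf2 (chr19:6062882-6062941), which encodes a reductase of the sterol ring, had levels of 0.93, 1.42, 1.31 and 1.18 on NZO arrays and 2.17, 1.91, 2.13 and 1.98 on B6 arrays. The groups did not overlap, and the difference was -0.84 (SE 0.12, adjusted p 0.00309). Tm7sf2 had gWAT levels of 1.67, 2.04, 2.07 and 1.42 on NZO arrays and 2.18, 1.83, 1.71 and 1.73 on B6 arrays, and these overlapped. Its muscle levels were 1.03, 1.17, 1.19 and 1.02 on NZO arrays and 1.48, 1.40 and 1.25 on B6 arrays. Hmgcs1 went the other way, with 6.39, 6.72, 6.75 and 6.83 on NZO arrays and 6.24, 6.25, 6.34 and 6.05 on B6 arrays (0.45, SE 0.12, adjusted p 0.0373). These groups did not overlap, yet the Hmgcs1 call was lost in 7 of 8 fits that left out 1 array, every one except that without NZO 003, with adjusted p from 0.0535 to 0.108 in those 7. Fdps, Nsdhl, Pmvk and Sqle, enzymes of the mevalonate route and of later steps, had BAT differences of -0.94, -0.90, -0.86 and -0.83 with standard errors of 0.28 to 0.33, and did not pass, at adjusted p of 0.0817 to 0.102. Idi1, Msmo1, Mvk and Ebp, an isomerase, a demethylase, a kinase and a second isomerase of the route, differed in BAT by -0.56, -0.17, 0.19 and -0.07, none past the test. Fdps had levels of 2.71, 3.63, 2.96 and 4.14 on NZO BAT arrays against 4.73, 4.51, 3.86 and 4.11 on B6 BAT arrays, with NZO 011 inside the B6 range.

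Insig1 (chr5:28404246-28404305), the sterol-regulated anchor of the sensing machinery, had the largest BAT difference of the group. Its BAT levels were 0.69, 1.53, 0.93 and 1.09 on NZO arrays and 2.69, 2.20, 1.72 and 2.37 on B6 arrays. Every NZO BAT array lay below every B6 BAT array, and the difference was -1.18 (SE 0.24, adjusted p 0.0131), a 2.27-fold lower level. In gWAT Insig1 had 1.96, 2.21, 2.30 and 1.92 on NZO arrays and 2.55, 1.87, 1.82 and 1.93 on B6 arrays, and the strains overlapped (0.06, adjusted p 0.835). In muscle it had -1.37, -1.67, -1.37 and -1.87 on NZO arrays and -0.88, -1.43 and -1.18 on B6 arrays, a difference of -0.41 that did not pass (adjusted p 0.208).

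Srebf2 and Scap did not pass the test between strains in any tissue. Srebf2 had gWAT levels of -0.76, -0.78, -1.39 and -0.76 on NZO arrays and -0.56, -1.03, -1.16 and -0.89 on B6 arrays. In BAT it had -0.77, -1.22, -0.91 and -0.62 on NZO arrays and -0.66, -0.99, -1.01 and -0.90 on B6 arrays. In muscle it had -1.71, -1.47, -1.81 and -1.69 on NZO arrays and -1.77, -1.48 and -1.82 on B6 arrays. The strains overlapped in each tissue, with differences of -0.01 (SE 0.19), 0.01 (SE 0.15) and 0.02 (SE 0.13). A second, dimmer Srebf2 probe, at chr15:82030068-82030127 on build mm9, was higher in NZO gWAT by 0.76 (SE 0.14, adjusted p 0.00490). Scap, the escort of the transcription factor, differed by -0.19, -0.02 and -0.09 in gWAT, BAT and muscle, none past the test.

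Skeletal muscle fibre markers also separated the strains in BAT. All 9 were lower in NZO BAT, where their summed level was 1.43 to 7.35, against 198 to 839 in B6 BAT. Their part in the Insig1, Tm7sf2, Npc1, Hmgcs1 and Stard4 results was not tested. In B6, muscle minus BAT was -3.41 for Insig1, -0.68 for Tm7sf2, 0.02 for Npc1, -2.60 for Hmgcs1 and -0.39 for Stard4.

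In muscle, besides Stard4, 2 members were lower in NZO. Sc5d, the enzyme that sets the double bond at carbon 5 of the sterol ring, had levels of 1.61, 1.44, 1.30 and 1.18 on NZO arrays and 2.08, 1.87 and 1.94 on B6 arrays (-0.58, SE 0.13, adjusted p 0.0343). Insig2, the second anchor of the sensing machinery, had 3.38, 3.47, 3.48 and 3.48 on NZO arrays and 4.02, 3.86 and 3.75 on B6 arrays (-0.42, SE 0.10, adjusted p 0.0425). Neither gene's groups overlapped in muscle. The Insig2 call was lost in every one of 7 fits that left out 1 array (adjusted p 0.0519 to 0.157). The Sc5d call was lost in 6 of 7, all but that without NZO 003 (adjusted p 0.0618 to 0.133 in the 6). Sc5d had gWAT levels of 3.91, 4.38, 4.26 and 3.87 on NZO arrays and 5.01, 4.30, 3.83 and 4.18 on B6 arrays. In BAT it had 2.44, 2.71, 2.49 and 3.61 on NZO arrays and 3.94, 3.10, 2.97 and 3.44 on B6 arrays. The strains overlapped for Sc5d in both depots. In gWAT Insig2 had 2.88, 3.23, 3.23 and 2.74 on NZO arrays and 3.37, 3.20, 3.19 and 3.27 on B6 arrays. In BAT it had 2.22, 2.34, 2.43 and 2.48 on NZO arrays and 2.57, 2.57, 2.56 and 2.49 on B6 arrays, which lay apart but did not pass (-0.18, adjusted p 0.207).

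Mvd, the decarboxylase that ends the mevalonate steps, had a single discordant array in muscle. Its levels were 0.45, -6.05, 0.04 and 0.26 on NZO muscle arrays 003, 007, 009 and 011, and 0.41, 0.38 and 0.38 on B6 muscle arrays. The spot on NZO 007 was not well above background. The strain difference was -1.71 (SE 1.57) with that array and -0.14 (SE 0.14, adjusted p 0.600) without it. The other 15 enzymes besides Sc5d and Mvd differed by -0.34 to 0.29 in muscle, none past the test. Tm7sf2 had probes of opposite sign there, at -0.27 and 0.39.

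**Figure D2:**
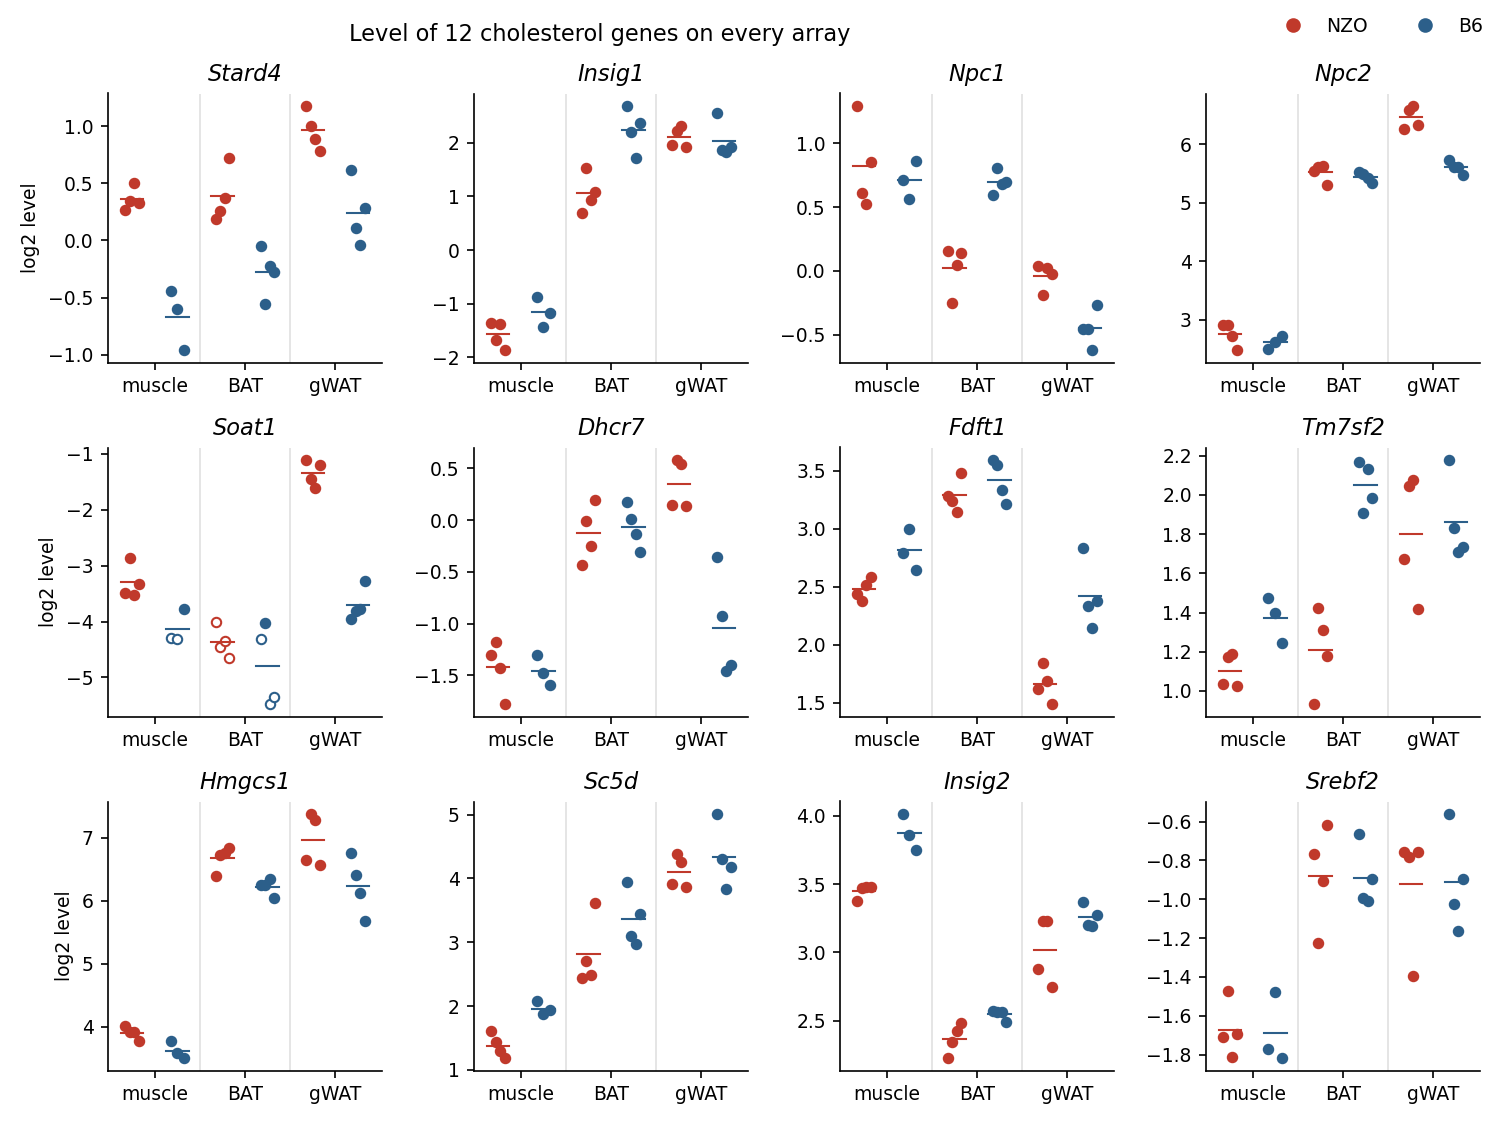
Levels of 12 of the genes on the 23 arrays used. Each point is 1 array on the vertical axis of log2 level, red for NZO and blue for B6, open where the spot was not well above background; short lines are group means, and each panel has its own scale. Stard4 lies higher in NZO in all 3 tissues, while Insig1 and Tm7sf2 separate the strains in BAT.

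Slide and scan run coincided, with 6 slides in all, and some slides held both strains of a tissue. On gWAT slides 4 and 6, on BAT slide 3 and on muscle slide 4, the called members kept their sign in 6 of 6, 6 of 6, 5 of 5 and 3 of 3 cases. The strains did not overlap for any called member, so any pair of these arrays had to keep the sign. These counts are therefore no check on an effect of slide. Within these slides the Soat1 difference in gWAT was 2.50 and 1.92, the Insig1 difference in BAT was -0.83, and the Stard4 difference in muscle was 0.79. With slide as a block in a fit of all arrays, the Npc1 call in gWAT (0.33, adjusted p 0.150), the Hmgcs1 call in BAT (0.71, adjusted p 0.0507) and the Sc5d call in muscle (-0.55, adjusted p 0.302) were lost.

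Whether the strain difference itself varied between tissues was tested as an interaction over all 23 arrays. The strain difference in BAT minus that in gWAT was called for 9 of 27 members, against 19.2% of all genes tested. It was negative for 7, namely Soat1 (-1.93, SE 0.38), Dhcr7 (-1.45, SE 0.30), Fdps (-1.26, SE 0.35), Insig1 (-1.24, SE 0.30), Npc1 (-1.08, SE 0.20), Npc2 (-0.78, SE 0.16) and Tm7sf2 (-0.78, SE 0.20). It was positive for Fdft1 (0.63, SE 0.19) and Mylip (0.57, SE 0.19). With slide as a block, Insig1 (-0.97, adjusted p 0.0584), Fdft1 (0.65, adjusted p 0.0548) and Mylip (0.40, adjusted p 0.219) were no longer called. The Soat1 value rests on BAT spots near background. For Fdps, neither depot alone had passed: NZO minus B6 was 0.31 in gWAT and -0.94 in BAT. The Mylip call was lost in 10 of 23 fits that left out 1 array (adjusted p up to 0.0897), and the Fdft1 value turned to -0.25 with the mean over both probes.

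The strain difference in muscle minus that in gWAT was called for 3 of 27 members, against 20.7% of all genes. These were Soat1 (-1.52, SE 0.40), Dhcr7 (-1.35, SE 0.31) and Npc2 (-0.72, SE 0.17), each higher in NZO gWAT. The Soat1 value includes B6 muscle, where 1 of 3 spots was well above background, and its call was lost with slide as a block (adjusted p 0.0594) and without the hepatocyte-rich arrays (adjusted p 0.0650). The Npc2 call was lost with B6 muscle 011 kept (-1.28, adjusted p 0.0600). The strain difference in BAT minus that in muscle was called for Npc1 alone (-0.78, SE 0.20, adjusted p 0.0276), against 6.17% of all genes. That call was lost without B6 BAT 010, B6 muscle 009 or B6 muscle 010, with adjusted p of 0.0531 to 0.0884. For Stard4, the 3 interactions were -0.06, 0.31 and -0.37, none past the test.

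Tissues were compared within each strain, and most members were lower in muscle than in either fat depot. Muscle minus gWAT was called lower for 22 and higher for 3 of 27 members in NZO, where 32.4% of all genes were lower and 36.5% higher. In B6, 20 were lower and 2 higher, against 35.1% and 36.7% of all genes. The members' median was -1.78 in NZO and -1.57 in B6, where that of all genes was 0.11 and 0.07. Muscle minus BAT was called lower for 20 and higher for 3 of 27 in NZO, against 34.5% and 26.7% of all genes, and lower for 21 and higher for 1 of 26 in B6, against 35.8% and 29.4%. The medians of the members were -0.87 and -0.98, and those of all genes -0.13 and -0.10.

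**Figure D3:**
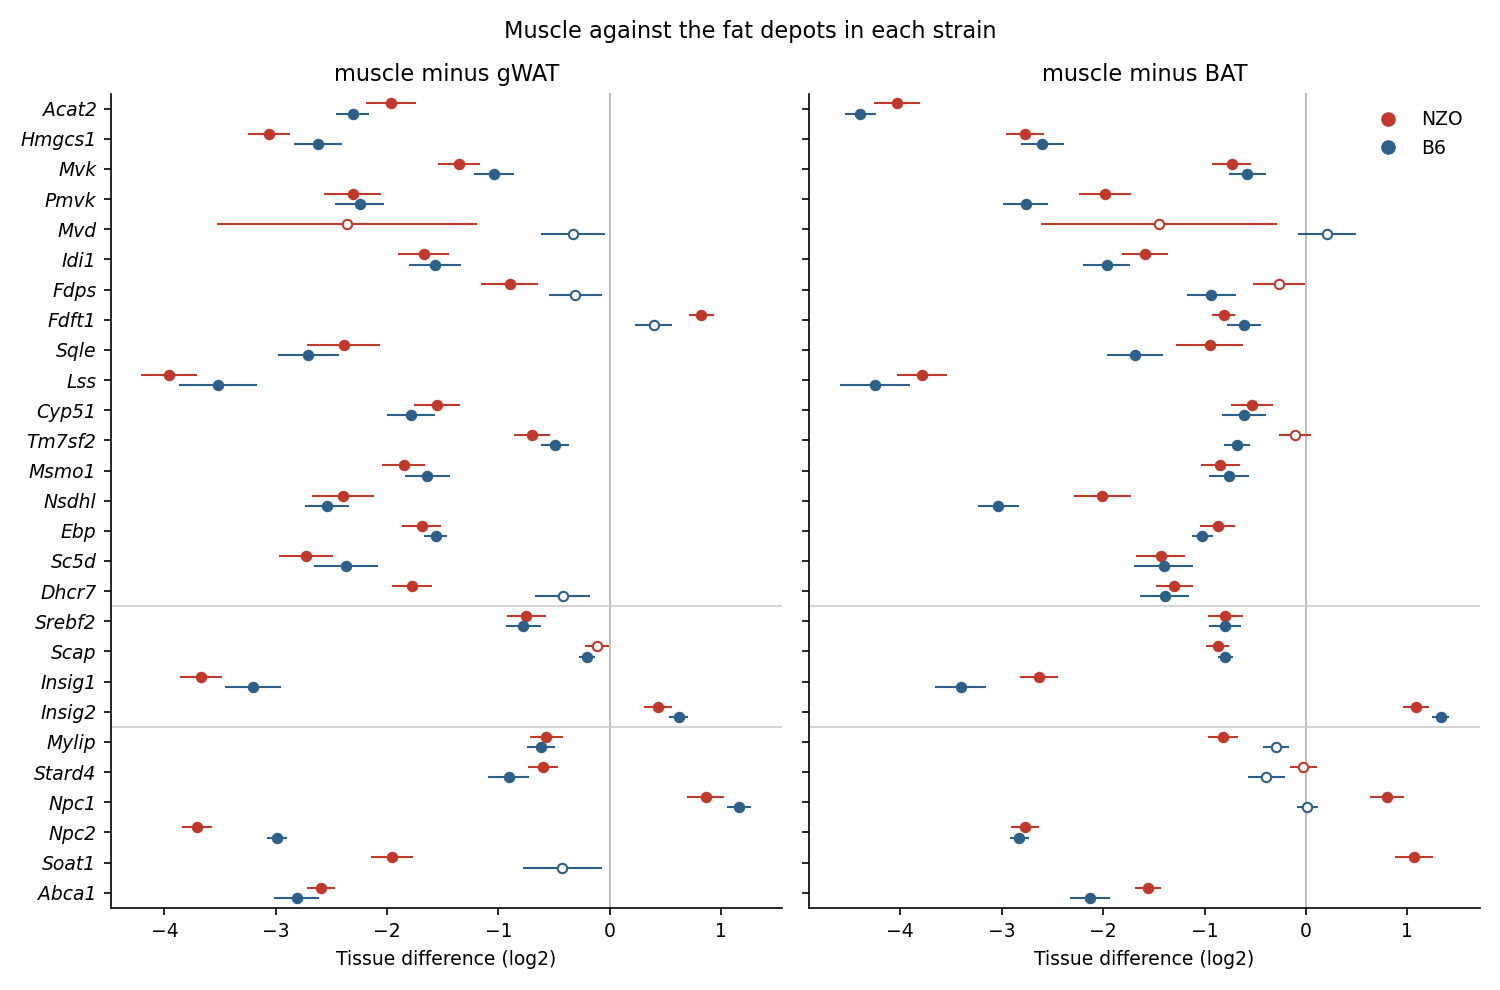
Muscle minus gWAT and muscle minus BAT for the 27 genes in each strain. Points are fitted log2 differences with standard errors, red for NZO and blue for B6, filled where the adjusted p was under 0.05; Soat1 was not tested for muscle minus BAT in B6. Most points lie below 0, whereas Insig2 and Npc1 lie above 0 in both strains and both comparisons. Npc1 did not pass the test for muscle minus BAT in B6, where it lies close to 0.

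The enzymes, 17 of the 27 members, gave 16 of 25 calls for muscle minus gWAT in NZO and 13 of 22 in B6. For muscle minus BAT they gave 14 of 23 calls in NZO and 16 of 22 in B6. Of 17, muscle minus gWAT was lower for 15 and higher for 1 in NZO and lower for 13 in B6, and muscle minus BAT was lower for 14 in NZO and 16 in B6. Lss, which closes squalene epoxide into lanosterol, had muscle levels of -2.14, -3.01, -2.93 and -3.09 on NZO arrays and -3.51, -2.42 and -2.76 on B6 arrays. Its gWAT levels were 1.08, 1.44, 1.36 and 0.79 on NZO arrays and 1.44, 0.56, 0.02 and 0.47 on B6 arrays. Its BAT levels were 0.53, 1.18, 0.87 and 1.40 on NZO arrays and 1.77, 1.43, 1.09 and 1.12 on B6 arrays. All muscle arrays lay below all fat arrays, and muscle minus gWAT was -3.96 (SE 0.25, adjusted p 6.33e-08) in NZO and -3.52 (SE 0.35, adjusted p 7.72e-06) in B6. Muscle minus BAT was -3.78 in NZO and -4.25 in B6.

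Acat2, the cytosolic thiolase at the start of the route, had muscle levels of -1.22, -1.38, -1.84 and -2.18 on NZO arrays and -2.03, -1.80 and -1.48 on B6 arrays. Its BAT levels were 2.39, 2.72, 2.45 and 1.94 on NZO arrays and 2.71, 2.33, 2.69 and 2.76 on B6 arrays. Its gWAT levels were 0.22, 0.59, 0.30 and 0.12 on NZO arrays and 0.72, 0.44, 0.43 and 0.57 on B6 arrays. The 3 tissues did not overlap in either strain, with BAT highest and muscle lowest. Muscle minus BAT was -4.03 (SE 0.22, adjusted p 2.75e-08) in NZO and -4.39 (SE 0.15, adjusted p 6.62e-09) in B6, or 16.3-fold and 21.0-fold lower levels in muscle.

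Hmgcs1 had muscle levels of 4.01, 3.92, 3.92 and 3.77 on NZO arrays and 3.78, 3.58 and 3.50 on B6 arrays, below every fat array. Muscle minus gWAT was -3.06 in NZO and -2.62 in B6, and muscle minus BAT was -2.77 and -2.60. Nsdhl, Sqle, Sc5d and Pmvk were lower in muscle than in gWAT in both strains, with differences of -2.73 to -2.25. Fdft1 was instead higher in NZO muscle than NZO gWAT (0.82, SE 0.11, adjusted p 4.65e-05), while its dimmer probe gave -0.30 (adjusted p 0.431). In NZO that probe was well above background on every array in gWAT only. For Mvd, muscle minus gWAT in NZO was -2.36 (SE 1.17) with NZO muscle 007 and -0.79 (adjusted p 0.0114) without it.

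The sensing genes did not share 1 direction. Insig1 was lower in muscle: muscle minus gWAT was -3.67 in NZO (SE 0.19, adjusted p 1.25e-08) and -3.20 in B6 (SE 0.25, adjusted p 1.31e-06), and muscle minus BAT was -2.63 in NZO and -3.41 in B6. Insig2 was higher in muscle than in BAT by 1.08 (SE 0.13) in NZO and 1.33 (SE 0.09) in B6, and higher than in gWAT by 0.43 (SE 0.13) and 0.62 (SE 0.09). All muscle arrays lay above all fat arrays for Insig2 within each strain. The NZO difference of Insig2 to gWAT was -0.00 when arrays were scaled to their median. Srebf2 was lower in muscle in all 4 comparisons, at -0.80 to -0.75. Scap was lower in muscle than in BAT (-0.87 in NZO and -0.80 in B6) and lower than in gWAT in B6 (-0.21, adjusted p 0.0265). Leaving out 1 array ended that last call in 5 of 11 fits. Same-numbered B6 muscle and gWAT arrays correlated at 0.104 to 0.377, and with the array number as a block the Scap value was -0.20 (adjusted p 0.0654).

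Among the transport genes, Npc2 and Npc1 ran in opposite directions in muscle against gWAT. Npc2 had muscle levels of 2.91, 2.91, 2.73 and 2.48 on NZO arrays and 2.51, 2.62 and 2.72 on B6 arrays. Muscle minus gWAT was -3.71 (SE 0.14, adjusted p 9.19e-10) in NZO and -2.99 (SE 0.09, adjusted p 3.01e-09) in B6, and muscle minus BAT was -2.77 and -2.83. Npc1 was higher in muscle than in gWAT by 0.86 (SE 0.17) in NZO and 1.16 (SE 0.11) in B6. Against BAT, Npc1 was higher in NZO muscle by 0.80 (SE 0.17, adjusted p 0.00141), and the difference was 0.02 (SE 0.11, adjusted p 0.911) in B6. Abca1 was lower in muscle than in gWAT (-2.59 in NZO and -2.81 in B6). For Soat1, muscle minus BAT in NZO was 1.07 (SE 0.19, adjusted p 0.000393), but no BAT array was well above background. Over the alternatives it ran from 0.071 to 1.19, and 2 of 21, normexp background correction and the series table, lost the call (adjusted p up to 0.580).

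**Figure D4:**
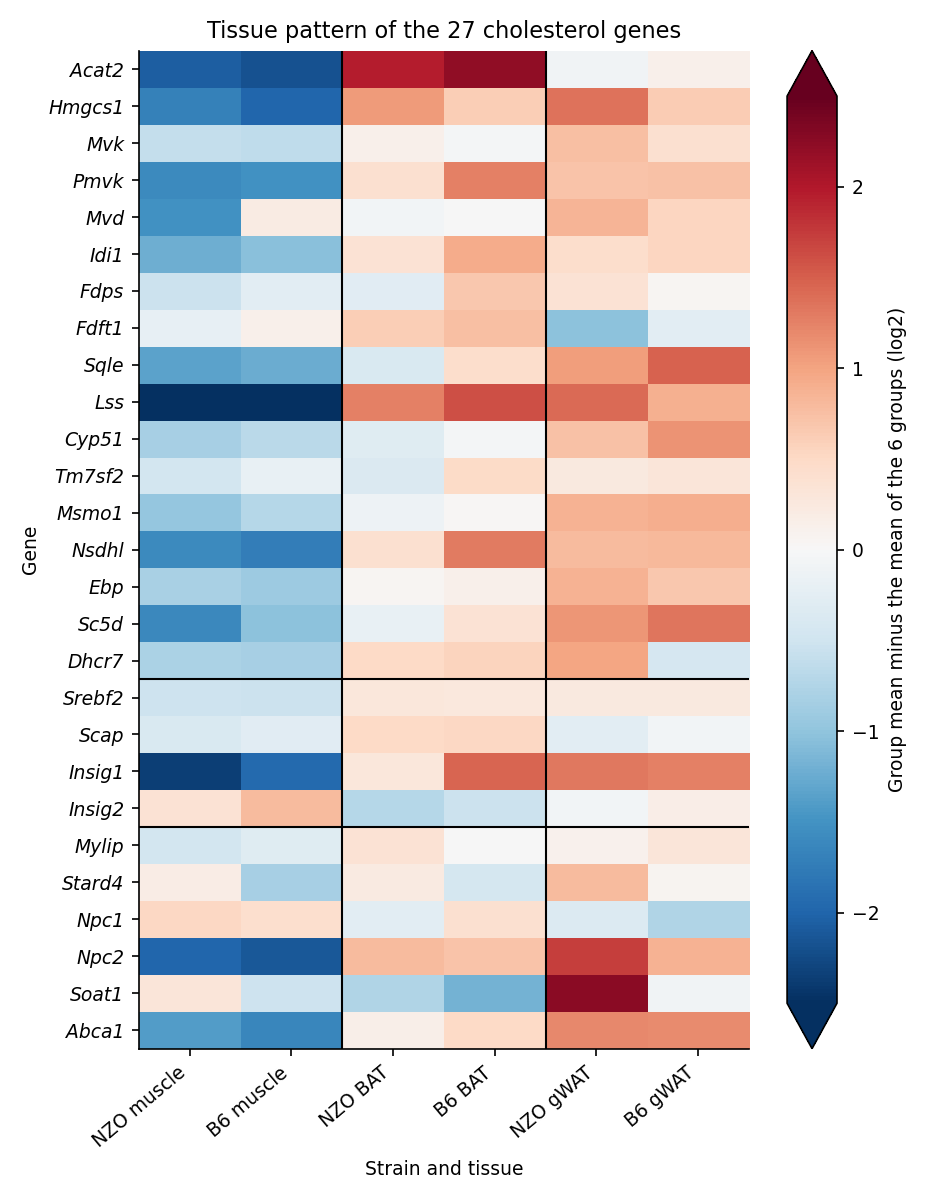
Tissue pattern of the 27 genes. Each cell is a gene's mean level in a group minus its mean over the 6 groups, in log2 units, red above and blue below; the colour scale ends at -2.5 and 2.5. The muscle columns are blue for most enzymes, with Acat2 red in BAT and Soat1 red in NZO gWAT; the NZO muscle value of Mvd rests on the single array numbered 007.

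Between the fat depots, calls in both directions were found. BAT minus gWAT was called lower for 15 and higher for 3 of 27 members in NZO, where 25.5% of all genes were lower and 38.9% higher. In B6, 11 were lower and 7 higher, against 26.3% and 36.7% of all genes. The members' median was -0.59 in NZO and -0.02 in B6, where that of all genes was 0.25 and 0.15. The enzymes split into 9 lower and 2 higher in NZO and 6 lower and 5 higher in B6. No test compared these counts between strains beyond the interactions above.

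Acat2 was the enzyme with the largest rise in BAT over gWAT, by 2.06 (SE 0.22, adjusted p 1.06e-05) in NZO and 2.08 (SE 0.14, adjusted p 8.00e-07) in B6. Fdft1 was higher in BAT by 1.63 (SE 0.11, adjusted p 2.65e-07) in NZO, with BAT levels of 3.28, 3.24, 3.15 and 3.48, and by 1.00 (SE 0.16) in B6, with 3.60, 3.55, 3.33 and 3.22. Its dimmer probe gave -0.55 (adjusted p 0.164) in NZO, where it was well above background on every array in gWAT but not in BAT. Cyp51, the lanosterol demethylase, was lower in BAT in both strains. Its BAT levels were -1.90, -2.02, -2.05 and -1.16 on NZO arrays and -1.09, -1.71, -1.80 and -1.55 on B6 arrays. Its gWAT levels were -0.86, -0.68, -0.45 and -1.06 on NZO arrays and -0.11, -0.59, -0.75 and -0.01 on B6 arrays. BAT minus gWAT for Cyp51 was -1.02 (SE 0.21, adjusted p 0.00130) in NZO and -1.17 (SE 0.20, adjusted p 0.000586) in B6.

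Fdps and Dhcr7 were called in opposite directions in the 2 strains. Fdps, which makes farnesyl diphosphate, was lower in NZO BAT than NZO gWAT (-0.64, SE 0.26, adjusted p 0.0466) and higher in B6 BAT than B6 gWAT (0.62, SE 0.22, adjusted p 0.0323). Leaving out 1 array ended the NZO call in 9 of 12 fits and the B6 call in 4 of 11. Dhcr7 was lower in NZO BAT than NZO gWAT (-0.48, SE 0.18, adjusted p 0.0358) and higher in B6 BAT than B6 gWAT (0.97, SE 0.23, adjusted p 0.00400). With the array number as a block, which matched NZO fat arrays 003, 007 and 009 between the depots, the NZO value of Dhcr7 was -0.54 (adjusted p 0.0568). Insig1 was lower in NZO BAT than NZO gWAT (-1.04, SE 0.19, adjusted p 0.000545), and in B6 the difference was 0.20 (adjusted p 0.461). Npc1 was higher in B6 BAT than B6 gWAT by 1.15 (SE 0.10, adjusted p 4.94e-06), and in NZO the difference was 0.06 (adjusted p 0.752). Soat1 was lower in NZO BAT than in NZO gWAT (-3.02, SE 0.19, adjusted p 1.24e-07), with no BAT array well above background. That value ran from -3.45 to -0.70 over 21 alternatives, the smallest size with normexp background correction, and was called in each. In B6 Soat1 was lower in BAT (-1.09, adjusted p 0.0151). With normexp background correction the value was 0.40 and was called higher in BAT (adjusted p 0.00193). Of the B6 BAT spots, 3 of 4 were not well above background.

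**Figure D5:**
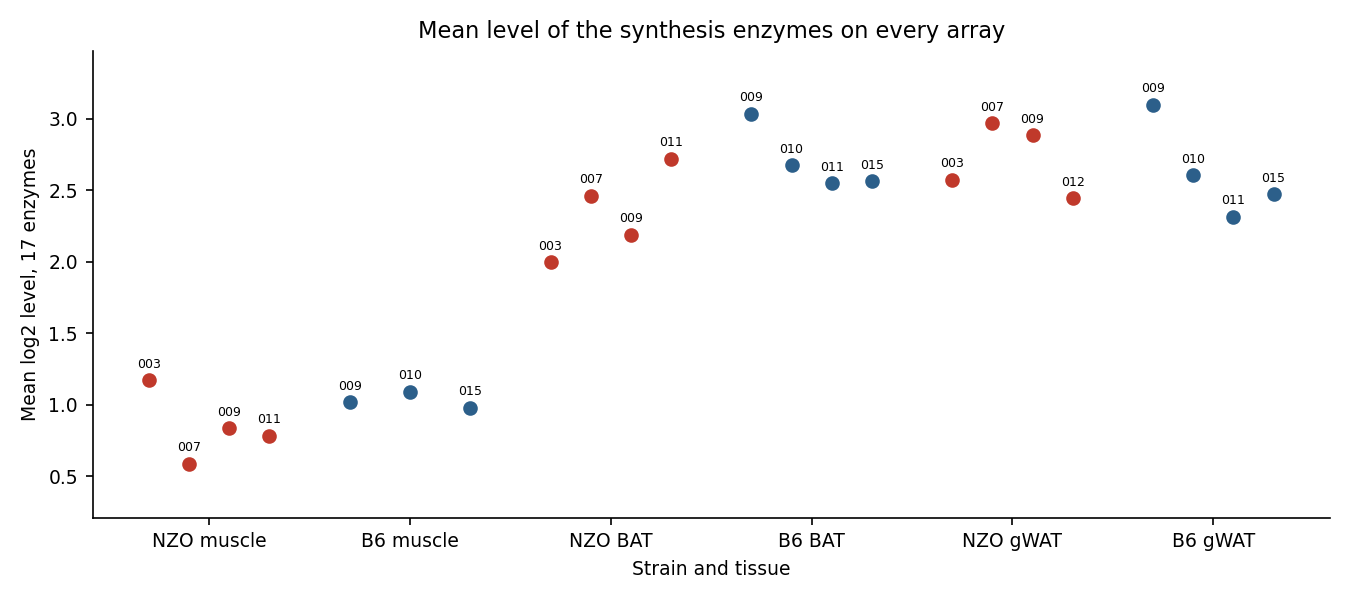
Mean level of the 17 synthesis enzymes on each array used. Each point is the mean of 17 log2 levels on 1 array, labelled with the array's number, red for NZO and blue for B6. Muscle arrays lie at 0.59 to 1.17, below BAT at 2.0 to 3.03 and gWAT at 2.32 to 3.10.

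The mean level of the 17 enzymes on each array summarised the route. It was 0.59 to 1.17 on NZO muscle arrays and 0.98 to 1.09 on B6 muscle arrays, 2.0 to 2.72 on NZO BAT arrays and 2.55 to 3.03 on B6 BAT arrays, and 2.44 to 2.97 on NZO gWAT arrays and 2.32 to 3.10 on B6 gWAT arrays. The strains overlapped in each tissue. The highest array in gWAT and in BAT was the B6 array numbered 009, and the lowest muscle array, NZO 007, was the one with the discordant Mvd spot. In muscle, the mature adipocyte marker sums were 153 to 300 on NZO arrays and 209 to 263 on B6 arrays, and their part in the low levels of muscle was not tested.

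Beyond the 27 members, 26 other sterol genes were set beside them, from a list of hydrolases, carriers, oxysterol enzymes and receptors. In gWAT 8 were higher and 3 lower in NZO, against 15.9% and 15.7% of all genes. The largest were Nceh1, a cholesteryl ester hydrolase (2.75, SE 0.17), and Lipa, the lysosomal acid lipase (2.39, SE 0.12), followed by the sterol exporter Abcg1 (1.59, SE 0.10). Ch25h, which makes 25-hydroxycholesterol (1.54, SE 0.41), Stard5 (0.95), Vldlr (0.78) and Stard3 (0.55) were also higher. Lbr, which shares the ring-reducing step with Tm7sf2 (-0.79, SE 0.11), the lipoprotein receptor Scarb1 (-0.73, SE 0.12) and the sterol hydroxylase Cyp27a1 (-0.71, SE 0.11) were lower in NZO gWAT. Of 25 tested in BAT, Lbr (-0.55) and Ggps1 (-0.41) were lower and 0 were higher, against 8.10% and 7.58% of all genes, so the lower calls were near the share over all genes. Of 25 tested in muscle, Lipa was higher (0.95, SE 0.18), and Lbr (-0.70), Vldlr (-0.56) and Ggps1 (-0.53) were lower, against 4.69% higher and 6.01% lower of all genes. The macrophage marker sums given above differed in gWAT beside these values also, and their part was not tested.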

How the data were processed

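Total RNA was extracted with TRIzol and labelled with Cy3, per the labels' protocols, and hybridised to single-colour Agilent mouse arrays, 24 in all, 4 in each of 6 groups. The deposited files hold the processed signal intensity of each spot, background-subtracted by Agilent Feature Extraction, version 11.0.1.1 per the file headers and 9.1 per the submitters' processing notes. The deposited series table, also of linear intensity, held the mean median-signal per transcript and served only as an alternative. No column of per-sample values was left unused (0 columns).

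From the deposited intensities, log2 levels were computed as log2 processed signal minus the log2 of each array's 75th percentile over non-control spots. Spots marked as outliers were set missing, repeated spots averaged, and each gene was represented by its brightest probe on average over 23 arrays. Genes entered a test when every array of at least 1 compared group called them well above background. Tests used limma 3.58.1 in R 4.3.3 (lmFit and eBayes) with Benjamini-Hochberg adjustment over all genes tested, called under 0.05. Strain differences were fitted within a tissue, tissue differences within a strain, and interactions over 23 arrays. The code was tested on simulated data. The number of arrays limits the precision.

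The 27 members, the gene lists and the tests were chosen with earlier results of these data known. Values on every array are given for members called in a strain difference, for Srebf2, Insig1, Insig2, Abca1, Npc1 and Soat1, and for the 3 called members with the largest difference in each tissue comparison; other sterol genes are named where called between strains, except 1 that is counted but not reported here. Alternatives were the probe rule, the dim-probe filter, normexp background, quantile and median scaling, the series table, 1 fit of all arrays, slide and array number as blocks, the B6 muscle array 011 kept, and each array left out. Leaving out arrays rich in hepatocyte transcripts was added after seeing the data. Arrays with the same number correlated above 0.1 in every pair only for NZO BAT with gWAT (0.173 to 0.344) and B6 muscle with gWAT (0.104 to 0.377). The pairing there comes from these data, since the labels do not say what a number marks.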

Additional observations from a re-analysis of the deposited data

Results flagged for a closer look

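In 12 of 135 groups of 4 arrays tested, 1 array lay far from the other 3, and chance gives about 1 in 20. Mvd was at -6.05 on NZO muscle 007, against 0.04 to 0.45 on the other NZO muscle arrays, and its spot was not well above background. Lss was at -2.14 on NZO muscle 003, against -3.09 to -2.93, and Insig2 was at 3.38 on the same array, against 3.47 to 3.48. Abca1 was at 0.092 on NZO muscle 011, against 0.34 to 0.36. Cyp51 was at -1.16 on NZO BAT 011, against -2.05 to -1.90. In NZO gWAT, Fdps was at 3.77 on array 012, against 4.05 to 4.08, and Srebf2 was at -1.39 on array 009, against -0.78 to -0.76. In B6 gWAT, Insig1 was at 2.55 on array 009, against 1.82 to 1.93, and Abca1 was at 3.12 on array 015, against 2.77 to 2.80. In B6 BAT, Msmo1 was at 2.75 on array 009, against 2.08 to 2.13, Acat2 was at 2.33 on array 010, against 2.69 to 2.76, and Insig2 was at 2.49 on array 015, against 2.56 to 2.57.

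The strain difference varied between tissues by the interaction test in 13 cases. Between BAT and gWAT these were Soat1 (-1.93, adjusted p 0.00163), Dhcr7 (-1.45, 0.00198), Fdps (-1.26, 0.0174), Insig1 (-1.24, 0.00768), Npc1 (-1.08, 0.000761), Npc2 (-0.78, 0.00206), Tm7sf2 (-0.78, 0.0113), Fdft1 (0.63, 0.0251) and Mylip (0.57, 0.0400). Between muscle and gWAT they were Soat1 (-1.52, 0.0120), Dhcr7 (-1.35, 0.00472) and Npc2 (-0.72, 0.00515). Between BAT and muscle it was Npc1 (-0.78, 0.0276). The Soat1 values rest in part on BAT and B6 muscle spots near background. Soat1 was not tested between strains in BAT, so its value there does not measure a strain difference.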

How the results depend on the processing

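Soat1, Dhcr7 and Npc2 in gWAT kept direction and call under every alternative run. Tm7sf2 and Insig1 in BAT lost theirs only with the array number as a block. That replicate block called 0 members between strains in BAT, against 5, and 434 genes, against 3248, where 009 and 011 occur in both strains and share only a number. The replicate block gave 17 against 18 calls for BAT minus gWAT in NZO. It ended 2 calls, those of Dhcr7 and Scap, where same-numbered arrays correlated above 0.1 in every pair. Elsewhere it ended those of Cyp51 and Sqle for muscle minus BAT in NZO and of Mylip for BAT minus gWAT in B6.

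Members called between strains in gWAT numbered 6, and 3 without the hepatocyte-rich arrays. In BAT they numbered 5, and 3 without a dim-probe filter or with median scaling, with 3 to 7 when 1 array was left out. In muscle they numbered 3, and 0 with B6 011 kept or without the hepatocyte-rich arrays, and 1 without a filter, with quantile or with median scaling, with 1 to 2 when 1 array was left out. The interaction of BAT against muscle called 1, then 2 with the mean over probes, and 0 without a filter, with median scaling, with slide as a block or without the hepatocyte-rich arrays, with 0 to 2 when 1 array was left out.

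Over all genes, 2227 were called between strains in muscle, 1081 with B6 011 kept, 1369 without a filter, 1253 with median scaling, 890 without the hepatocyte-rich arrays, and 1012, 983 and 1414 without B6 009, B6 010 and NZO 007. The interaction of BAT against muscle called 1370 genes, 572 with median scaling, 411 with slide as a block, 780 without the hepatocyte-rich arrays, and 816 and 887 without B6 muscle 009 and 010. Median scaling moved the median of all genes to 0.26 in the gWAT strain difference and the share of calls that were higher to 73.0%, against 50.4%. That share went to 35.9% against 60.4% for BAT minus gWAT in NZO, 43.1% against 58.2% in B6 (47.2% with quantile), 33.9% against 53.0% for muscle minus gWAT in NZO, 26.5% against 47.8% and 17.8% against 43.6% for the interactions of BAT and muscle with gWAT. With normexp it was 62.5% against 51.1% for muscle minus gWAT in B6.

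Several values changed sign, and the cause was not tested. Of called results, Soat1 for BAT minus gWAT in B6 (-1.09) became 0.40 with normexp, a call in the other direction (adjusted p 0.00193). In the series table it became 0.24 (adjusted p 0.145). The Fdft1 interaction of BAT against gWAT, called at 0.63, became -0.25 with the mean over probes. Insig2 for muscle minus gWAT in NZO, called at 0.43, became -0.000944 with median scaling. The others had not passed the test. Srebf2 in gWAT became 0.38 with the mean over probes, 0.000611 with normexp, 0.065 with quantile, 0.25 with median scaling and 0.14 in the series table (-0.095 to 0.15 when 1 array was left out). Srebf2 in BAT became -0.010 with normexp and -0.22 with slide as a block (-0.075 to 0.13). Srebf2 in muscle became -0.086 with B6 011 kept, -0.018 with normexp, -0.00959 with quantile, -0.029 with median scaling, -0.064 in the series table and -0.064 without the hepatocyte-rich arrays (-0.049 to 0.12). Abca1 in gWAT became -0.00968 with normexp, -0.069 with quantile, -0.066 with slide as a block and -0.037 in the series table (-0.053 to 0.10), and in muscle -0.10 with B6 011 kept. Insig1 in gWAT became -0.00695 with quantile (-0.015 to 0.23). Npc1 in muscle became -0.022 without the hepatocyte-rich arrays (-0.048 to 0.21). With median scaling Insig2 became 0.022 in gWAT between strains. Dim spots, such as those of Soat1 in BAT, limit what can be compared.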

Other observations

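The B6 muscle array numbered 011, left out of every comparison, had levels unlike those of the other 3 B6 muscle arrays in many of the genes. Hmgcs1 was at 5.48 on it, against 3.50 to 3.78 on the others, and Npc2 was at 4.88, against 2.51 to 2.72. Insig1 was at 0.45, against -1.43 to -0.88, and Lss was at -0.33, against -3.51 to -2.42. Abca1 was at 1.40, against 0.00 to 0.10, and Sc5d was at 3.0, against 1.87 to 2.08. Insig2 was at 3.44, against 3.75 to 4.02, and Npc1 was at 0.19, against 0.56 to 0.86.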
